A study of Mus musculus with 12 samples.

Results

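Cathepsins are the main proteases of the lysosome, and 9 of their genes (Ctsa, Ctsb, Ctsc, Ctsd, Ctsh, Ctsk, Ctsl, Ctss and Ctsz) were followed here in macrophages (Mφ) sorted from mouse hearts. These genes were picked by symbol from the 24445 gene symbols of the count tables, which hold 23 cathepsin symbols in all. Earlier results of the same libraries were known when the 9 were picked. Their levels and adjusted p values between groups are therefore a description of these mice, and no test of them here is independent of the choice.

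The libraries came from 12 adult male C57BL6/J mice, 4 in each of 3 groups and 1 library per mouse. Every mouse carried an implanted osmotic micropump. It delivered saline in the control (Ct) group, isoproterenol at 30 mg/kg/day for 14 days in the group with early concentric hypertrophy (ECH), and the same dose for 28 days in the group with heart failure (HF). Isoproterenol is a β-adrenergic agonist that drives cardiac hypertrophy and, later, failure. Pumps ran for 14 or 28 days, and which of these times applied to each Ct mouse is not stated in the sources used here. Infusion time and stage of disease go together in this design and cannot be told apart. Leukocytes were enriched with CD45 beads, and live CD11b+ cells positive for CD14 and CD64 were sorted. Each library is thus a bulk sample of a sorted population, in which fewer cells of a type and less RNA per cell cannot be told apart.

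Lysosomal proteases degrade proteins that a Mφ takes up or recycles, such as dying cells, matrix and its own organelles. Most cathepsins are cysteine proteases of the papain fold. Ctsb, Ctsk, Ctsl and Ctss encode enzymes that can cut inside a protein chain, whereas the products of Ctsc, Ctsh and Ctsz mainly remove residues from an end. Ctsd encodes an aspartic protease, and Ctsa a serine carboxypeptidase that also protects lysosomal sialidase and β-galactosidase. The enzymes are made as inactive precursors, carried to the lysosome largely by mannose 6-phosphate receptors, activated by cleavage at acid pH, and held in check by cystatins and related inhibitors. In Mφ they also process the invariant chain of MHC class II and endosomal Toll-like receptors, and some are secreted and cut matrix proteins.

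Between 88466559 and 101190984 counts were assigned to genes per library in Ct, between 103926379 and 109030774 in ECH and between 106276190 and 111180291 in HF. The fewest genes were detected in HF library 1 (13600) and Ct library 2 (14489). The summed level of 8 Mφ markers, of which Lyz2, also expressed by neutrophils, and Csf1r were the most abundant, was 22289 to 24516 CPM (normalized counts relative to library size) in Ct, 21916 to 32138 in ECH and 23542 to 31056 in HF, and Adgre1, Csf1r and Cd68 were each at 579 CPM or more in every library. Some Mφ markers differed between the ECH libraries, with Adgre1 at 1320, 1311, 755 and 579 CPM, Lyz2 at 21130, 18990, 13154 and 12791 CPM, and Mertk, higher in the latter pair, at 183, 174, 496 and 414 CPM. Fcgr1 also differed (140, 182, 104 and 71.5 CPM). Csf1r (4496, 4586, 4036 and 4100 CPM) and Cd68 (1241, 1085, 1074 and 1024 CPM) differed less. Cd14 (2993, 2139, 2167 and 2247 CPM) and Itgam (636, 722, 787 and 690 CPM) overlapped between these pairs. Marker lists of other cell types were low but not at 0. Their summed levels were 96.6 to 446 CPM in Ct, 34.3 to 79.8 in ECH and 50.1 to 74.6 in HF for 5 B cell markers, and 206 to 1442, 86.6 to 569 and 60.8 to 1039 CPM for 8 neutrophil markers, of which Camp was at 0 in every HF library. The labels number the libraries from 3 to 6 in Ct and from 1 to 4 in HF, and as 1, 2, 5 and 6 in ECH. In this text the libraries of each group are instead numbered 1 to 4 in that order. Ct libraries 1 to 4 are thus labelled 3 to 6, and ECH libraries 3 and 4 are labelled 5 and 6. From the label numbers it was inferred, and not stated by any source used here, that the Ct libraries form a set with ECH libraries 1 and 2, and the HF libraries a set with ECH libraries 3 and 4. No source calls these sets batches, but the ECH libraries differed between them for some cathepsins. Values within a set are given where they change a result, and HF and Ct share no set. With the set as a factor, HF against Ct therefore depends on the ECH libraries, which alone link the sets.

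The members lie on 6 chromosomes, and sequence upstream of their start sites was looked at for short motifs that a reader may want beside the levels. RefSeq promoter windows (GRCm38.p6, 250 bases before the start site) were at hand for 7 of the 9 members; Ctsb and Ctsh had no entry. The motif CACGTG, the core of the element bound by the lysosomal regulator TFEB and by other E-box factors, was found in the windows of Ctsd, Ctsl and Ctsa, 3 of 7 members and 3 of their 8 windows, against 6.02% of 32851 mouse promoter windows of the same length. Ctsa had a window for each of 2 start sites, and the motif was in that of the downstream site. Ctsd held it at 245 and at 98 bases before the start, Ctsl at 236 and Ctsa at 12. CACGTG reads the same on both strands. The matches are shown in their own strand, 5′ to 3′, with the motif in capitals, since Ctsd is the member called in 2 of the comparisons.
Ctsd, chr7:142388055-142388077, minus strand: tccccCACGTGacctgtatccag
Ctsd, chr7:142387908-142387937, minus strand: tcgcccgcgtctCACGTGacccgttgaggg
Ctsl, chr13:64370739-64370768, minus strand: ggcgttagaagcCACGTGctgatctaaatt
Ctsa, chr2:164833749-164833772, plus strand: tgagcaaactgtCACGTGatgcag
The first Ctsd match lay outside every GENCODE M21 exon of the gene, and the other matches lay in or at the edge of an annotated 5′ UTR of a transcript of the gene. TGACG, a half-site of the cAMP response element, was in the Ctsd window only (1 of 7 members, against 17.8% of all windows, either strand). The AP-1 motif TGANTCA was in 0 of 7 (6.75% of all windows), and GAGGAA, the core read by the myeloid factor PU.1, in Ctsc, Ctsk and Ctss (3 of 7, against 23.3%). A match is a run of letters and not a measured binding site.

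Ctsk and Ctss are neighbours on chromosome 3 in the same orientation, with 17423 bases between the end of Ctsk and the start of Ctss. Their upstream windows, both without CACGTG, are shown because these genes stood at opposite ends of the range of levels.
Ctsk, chr3:95498960-95499209, plus strand: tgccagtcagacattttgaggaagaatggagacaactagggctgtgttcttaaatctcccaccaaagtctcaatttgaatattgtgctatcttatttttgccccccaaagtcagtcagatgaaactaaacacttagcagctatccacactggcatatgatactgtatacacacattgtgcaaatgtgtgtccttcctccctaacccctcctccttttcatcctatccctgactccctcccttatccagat
Ctss, chr3:95526536-95526785, plus strand: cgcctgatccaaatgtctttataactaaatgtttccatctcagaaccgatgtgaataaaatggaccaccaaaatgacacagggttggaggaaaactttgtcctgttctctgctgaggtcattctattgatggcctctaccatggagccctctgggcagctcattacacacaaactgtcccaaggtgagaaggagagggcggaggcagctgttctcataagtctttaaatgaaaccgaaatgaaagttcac

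Cathepsin transcripts made up a sizeable part of each library. In Ct, the 9 members took 1.42% to 1.72% of all counts. The share was 1.81% to 2.21% in ECH Mφ and 2.15% to 2.34% in HF Mφ. After scaling of library sizes by edgeR's TMM method, the summed level was 16781, 14633, 17094 and 16441 CPM in Ct libraries 1 to 4, 23492, 21469, 19922 and 17079 CPM in the ECH libraries, and 22099, 22607, 23186 and 21516 CPM in the HF libraries. The HF libraries were all above the Ct libraries, while the lowest ECH library fell within the range of Ct. The group means were 16237 ± 1102 CPM in Ct, 20490 ± 2704 in ECH and 22352 ± 712 in HF (SD, n = 4).

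**Figure D1:**
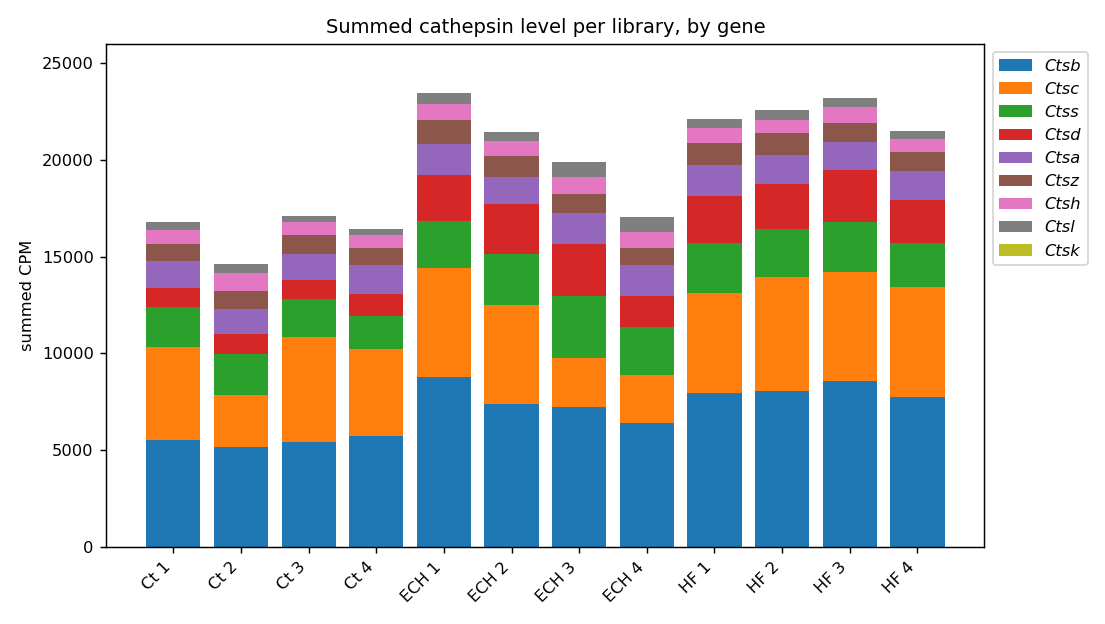
Summed TMM-normalized CPM of the 9 cathepsin genes in each of the 12 libraries, stacked by gene. Ctsb formed the largest block in every library, the Ctsd block was taller in every ECH and HF library than in every Ct library, and the Ctsc block was short in Ct library 2 and ECH libraries 3 and 4.

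A few genes carried these sums. Ctsb gave 33.8% of the summed cathepsin CPM in Ct, 36.4% in ECH and 36.2% in HF. Ctsd gave 6.36% in Ct, 11.3% in ECH and 10.9% in HF. Of the difference in the summed level between ECH and Ct, 4253 CPM, Ctsb held 46.3%, Ctsd 30.5% and Ctss 16.7%, while the share of Ctsc was −9.22%, since its mean was lower in ECH. Of the difference between HF and Ct, 6115 CPM, Ctsb held 42.8%, Ctsd 22.9% and Ctsc 20.4%. Ctsc alone held 88.1% of the 1862 CPM between HF and ECH.

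Levels of different genes were compared per length, as TPM, the unit scaled for both length and library size, computed from the counts and the summed exon length of each gene. In Ct Mφ Ctss led with 4268 ± 160 TPM, rank 28 among 23466 genes, followed by Ctsb (2658 ± 332), Ctsc (2205 ± 651), Ctsz (1865 ± 151), Ctsd (1289 ± 191), Ctsa (861 ± 107), Ctsh (486 ± 63.1), Ctsl (163 ± 24.5) and Ctsk (1.16 ± 0.860). The ranges of Ctsb and Ctsc overlapped over the 4 libraries, as did those of Ctsc and Ctsz, so these neighbours were not separated. In ECH the order was Ctss (6042 TPM), Ctsb (3697), Ctsd (2988), Ctsz (2143), Ctsc (2002), Ctsa (994), Ctsh (561), Ctsl (316) and Ctsk (7.21), with overlapping ranges from Ctsb through Ctsc. HF libraries gave the order Ctss (5244), Ctsb (3809), Ctsd (2942), Ctsc (2742), Ctsz (2110), Ctsa (895), Ctsh (473), Ctsl (199) and Ctsk (6.45), in which only Ctsd and Ctsc overlapped with their neighbour. Ctsd thus stood at rank 100 among all genes in Ct and at rank 40 in both ECH and HF. With the length of the longest coding transcript in place of all exons, Ctsc moved ahead of Ctsb in Ct, ahead of Ctsd and Ctsb in HF and ahead of Ctsz and Ctsd in ECH (2651 TPM, against 2423 for Ctsd and 1573 for Ctsz), and Ctsh ahead of Ctsa in every group.

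Against Ct, the ECH libraries lay above the Ct libraries for all 4 cysteine endopeptidase genes and for Ctsd, but Ctsd alone passed the thresholds (an FDR under 0.05 by edgeR's quasi-likelihood test over 14608 genes, and a fold change of at least 2). It was 1 of 9 members called between ECH and Ct, where 0.356% of all genes tested were called, and again 1 of 9 between HF and Ct, where 0.377% were. Between HF and ECH edgeR called 0 of 9 members and 0% of all genes. DESeq2 and limma-voom also called 0 members there, beside 0.322% and 0% of all genes. At an unadjusted p under 0.05 by edgeR, 5 members were higher in ECH than in Ct (Ctsb, Ctsd, Ctsk, Ctsl and Ctss), against 6.03% of all genes, and 4 were higher in HF than in Ct (Ctsb, Ctsd, Ctsk and Ctss), against 7.35%. Ctsk passed the filter on low counts only through the ECH and HF libraries, and without it these were 4 and 3 of 8 members. Only Ctsl was under that p between HF and ECH, and it was lower in HF, as were 5.17% of all genes.

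The groups were also compared by whether their libraries overlapped. In ECH, all 4 libraries were above all 4 Ct libraries for 5 members, against 4.33% of all genes, and in HF for 4 members, against 4.59%, or for 4 and 3 of the 8 members other than Ctsk. No member separated HF from ECH in this way, against 6.92% of all genes in either direction. The median log2 fold change of the members was 0.44 for ECH against Ct, 0.33 for HF against Ct and −0.06 for HF against ECH, beside 0.01, −0.01 and −0.02 for all genes tested. Without Ctsk the median was 0.30 for ECH and 0.32 for HF against Ct. The comparisons of ECH and of HF with Ct use the same Ct libraries, and those of HF and Ct with ECH the same ECH libraries, so their results are not independent of each other.

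**Figure D2:**
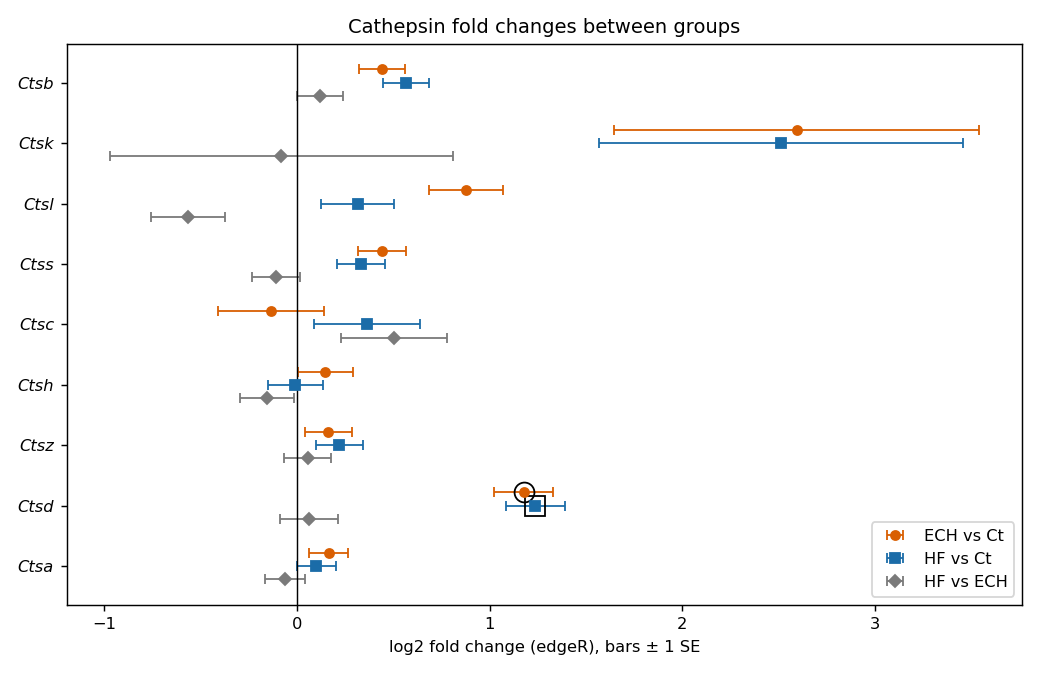
Log2 fold changes of the 9 members from edgeR, with bars of ± 1 SE, for ECH against Ct, HF against Ct and HF against ECH. The open symbols around the Ctsd points mark the calls (log2 fold change 1.18 and 1.24), and the widest bars belong to Ctsk, whose counts were few.

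Ctsd (chromosome 7, 142375911 to 142388038, minus strand, GRCm38) encodes cathepsin D, an aspartic protease that degrades bulk protein in the lysosome and activates other precursors. It stood at 1001, 990, 989 and 1137 CPM in the Ct libraries, at 2362, 2598, 2703 and 1647 CPM in the ECH libraries, and at 2447, 2353, 2686 and 2227 CPM in the HF libraries. Every ECH and HF library was above every Ct library, and ECH library 4 was the lowest of the treated mice. Ctsd rose 2.26-fold in ECH over Ct (log2 fold change 1.18, SE 0.15, edgeR FDR 0.00803) and 2.36-fold in HF over Ct (1.24, SE 0.15, edgeR FDR 0.00335). HF and ECH differed by 0.06 (SE 0.15, edgeR FDR 0.976), which is within the spread of the libraries. The FDR was under 0.05 in 21 of 21 other analyses of HF against Ct and in 20 of 22 of ECH against Ct. It was 0.0649 when only the ECH and Ct libraries were fitted and 0.139 for ECH libraries 1 and 2 alone against Ct, with log2 fold changes of 1.16 and 1.26. Reads of the overlapping gene model Gm49369 on the same strand could add to those of Ctsd.

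Ctsb (chromosome 14, 63122462 to 63145923, plus strand) encodes cathepsin B, a cysteine protease with both endopeptidase and peptidyl-dipeptidase activity. In Ct it was at 5553, 5145, 5445 and 5744 CPM, in ECH at 8760, 7379, 7244 and 6385 CPM, and in HF at 7938, 8058, 8577 and 7772 CPM. No Ct library reached the lowest ECH or HF library, and the HF libraries lay closer together than those of ECH. In CPM this was the largest difference of any member, but as a fold change it was below 2, with 1.36-fold for ECH over Ct (0.44, SE 0.12, edgeR FDR 0.137) and 1.48-fold for HF over Ct (0.56, SE 0.12, edgeR FDR 0.0568). The FDR of Ctsb was thus above 0.05 in both comparisons by edgeR. By DESeq2 it was 0.00335 for ECH and 2.76e-05 for HF, and for HF it was also under 0.05 by limma-voom (0.0262), when only genes above 1 CPM in at least 4 libraries were kept (0.0449) and with the library set as a factor (0.0455), all at less than a 2-fold change. The last of these depends on the ECH libraries to link the sets. The 3′ end of Ctsb overlaps Fdft1 on the other strand (268 to 3036 counts per library), and no source used here names the strand setting of the counting.

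Ctsl (chromosome 13, 64359337 to 64370890, minus strand) encodes cathepsin L, a cysteine endopeptidase of lysosomal turnover. Its levels were 381, 466, 312 and 300 CPM in Ct, 607, 478, 797 and 800 CPM in ECH, and 416, 548, 421 and 429 CPM in HF. All ECH libraries were above all Ct libraries, narrowly so for ECH library 2 against Ct library 2. HF overlapped with both other groups, since HF library 2 was above ECH library 2. The fold change for ECH over Ct was 1.84 (0.88, SE 0.19, edgeR FDR 0.0730). Leaving out Ct library 2 gave 1.02 with an edgeR FDR of 0.0452, and leaving out ECH library 2 gave 1.01 with an edgeR FDR of 0.0341, so single libraries decided whether Ctsl was called. DESeq2 (FDR 0.00118) and limma-voom (FDR 0.0362) also passed the FDR threshold for ECH, at less than a 2-fold change. With ECH libraries 1 and 2 alone, ECH was at 0.57 against Ct (edgeR FDR 0.941). HF was at 0.31 against Ct (SE 0.19, edgeR FDR 0.449) and at −0.56 against ECH (SE 0.19, edgeR FDR 0.549). ECH libraries 3 and 4, which share the set of the HF libraries, held the highest values of Ctsl, and HF against these libraries alone was at −0.81 (edgeR FDR 0.0157). With the library set as a factor, HF turned to −0.24 against Ct (edgeR FDR 0.751), a contrast that then depends on the ECH libraries.

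Ctss (chromosome 3, 95526786 to 95556403, plus strand) encodes cathepsin S, which stays active at neutral pH and trims the invariant chain in antigen-presenting cells. The Ct libraries held 2057, 2148, 1990 and 1752 CPM, the ECH libraries 2460, 2647, 3202 and 2481 CPM, and the HF libraries 2595, 2480, 2626 and 2306 CPM. Each ECH and HF library was above each Ct library, and ECH library 3 was the highest. The fold change was 1.36 for ECH over Ct (0.44, SE 0.12, edgeR FDR 0.157, DESeq2 FDR 0.0104) and 1.26 for HF over Ct (0.33, SE 0.12, edgeR FDR 0.228), and HF was at −0.11 against ECH (edgeR FDR 0.912). B cells also express Ctss, and the summed B cell markers given above were lower in ECH and HF than in Ct. Their part in the Ctss levels was not tested.

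Ctsk (chromosome 3, 95499256 to 95509362, plus strand) encodes cathepsin K, the collagen-degrading protease of osteoclasts. It was a rare transcript in these cells, with 51, 87, 0 and 89 counts in the Ct libraries, 265, 531, 293 and 462 in the ECH libraries and 230, 496, 352 and 398 in the HF libraries. In CPM this was 0 to 1.01 in Ct, 2.62 to 5.15 in ECH and 2.20 to 4.58 in HF, so that Ct did not overlap with either group. For the count of 0 in Ct library 3, counting error leaves room for up to 0.0303 CPM. The log2 fold change was 2.59 for ECH over Ct (SE 0.95, edgeR FDR 0.290) and 2.51 for HF over Ct (SE 0.94, edgeR FDR 0.230), and neither was called. Fibroblasts make Ctsk too, and the 7 fibroblast markers listed summed to 29.3 to 192 CPM in Ct, 90.2 to 468 in ECH and 81.1 to 248 in HF. Their part in the Ctsk levels was not tested.

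Ctsc (chromosome 7, 88278085 to 88310888, plus strand) encodes cathepsin C, or dipeptidyl peptidase I, which activates serine proteases of neutrophils and cytotoxic lymphocytes by removing dipeptides. It was at 4773, 2699, 5397 and 4466 CPM in Ct, at 5655, 5114, 2518 and 2479 CPM in ECH, and at 5180, 5886, 5610 and 5649 CPM in HF. The ECH libraries split into a high and a low pair, ECH libraries 1 and 2 against 3 and 4, which are the pairs of the library sets. The Mφ markers Adgre1, Lyz2, Fcgr1 and Mertk, given above, split the same libraries, Mertk in the opposite direction. Csf1r and Cd68 differed less between these pairs, and Cd14 and Itgam overlapped. The part of these markers in the Ctsc levels was not tested. Over all libraries the log2 fold change was −0.14 for ECH against Ct (SE 0.28, edgeR FDR 0.892), 0.36 for HF against Ct (SE 0.28, edgeR FDR 0.560) and 0.50 for HF against ECH (SE 0.28, edgeR FDR 0.690), all within the spread of the libraries. Within a set, ECH libraries 1 and 2 were at 0.30 against Ct, and HF was at 1.16 against ECH libraries 3 and 4, with an edgeR FDR of 0.00241 for the latter. With the library set as a factor, HF was at 1.16 against ECH (edgeR FDR 0.0177) and at 1.47 against Ct (edgeR FDR 0.0362), a contrast that then rests on the ECH libraries alone. The direction for ECH against Ct turned with the same factor, to 0.31. Neutrophils express Ctsc strongly, and their markers were highest in Ct library 2 (1442 CPM), where Ctsc was lowest of its group. The ECH libraries with low Ctsc, 3 and 4, held 86.6 and 569 CPM of these markers, the lowest and the highest sum of their group, and HF library 4 held 1039 CPM with Ctsc at 5649 CPM. The part of neutrophils was not tested either.

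The remaining members overlapped between the groups. Ctsh (chromosome 9, 90054152 to 90076089, plus strand) encodes an aminopeptidase and was at 749, 939, 635 and 685 CPM in Ct, 833, 785, 894 and 818 CPM in ECH and 815, 669, 838 and 667 CPM in HF. Ctsz (chromosome 2, 174427493 to 174439039, minus strand), a carboxypeptidase gene, was at 879, 905, 994 and 892 CPM in Ct, 1204, 1058, 955 and 895 CPM in ECH and 1143, 1140, 1008 and 986 CPM in HF. Ctsa (chromosome 2, 164832873 to 164841032, plus strand) was at 1388, 1339, 1331 and 1465 CPM in Ct, 1609, 1405, 1605 and 1570 CPM in ECH and 1562, 1469, 1417 and 1477 CPM in HF. None of these genes separated one group from another in any comparison. Against Ct, ECH was at 0.15 for Ctsh (SE 0.14), 0.16 for Ctsz (SE 0.12) and 0.16 for Ctsa (SE 0.10), and HF at −0.01, 0.22 and 0.10, with an edgeR FDR of at least 0.404. The sign for Ctsh in HF changed between analyses. Ctsa overlaps Pltp on the other strand (67008 to 135187 counts per library) and Neurl2, and Ctsz overlaps Nelfcd (3549 to 6935 counts), so that reads in the overlaps cannot be told apart without strand.

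**Figure D3:**
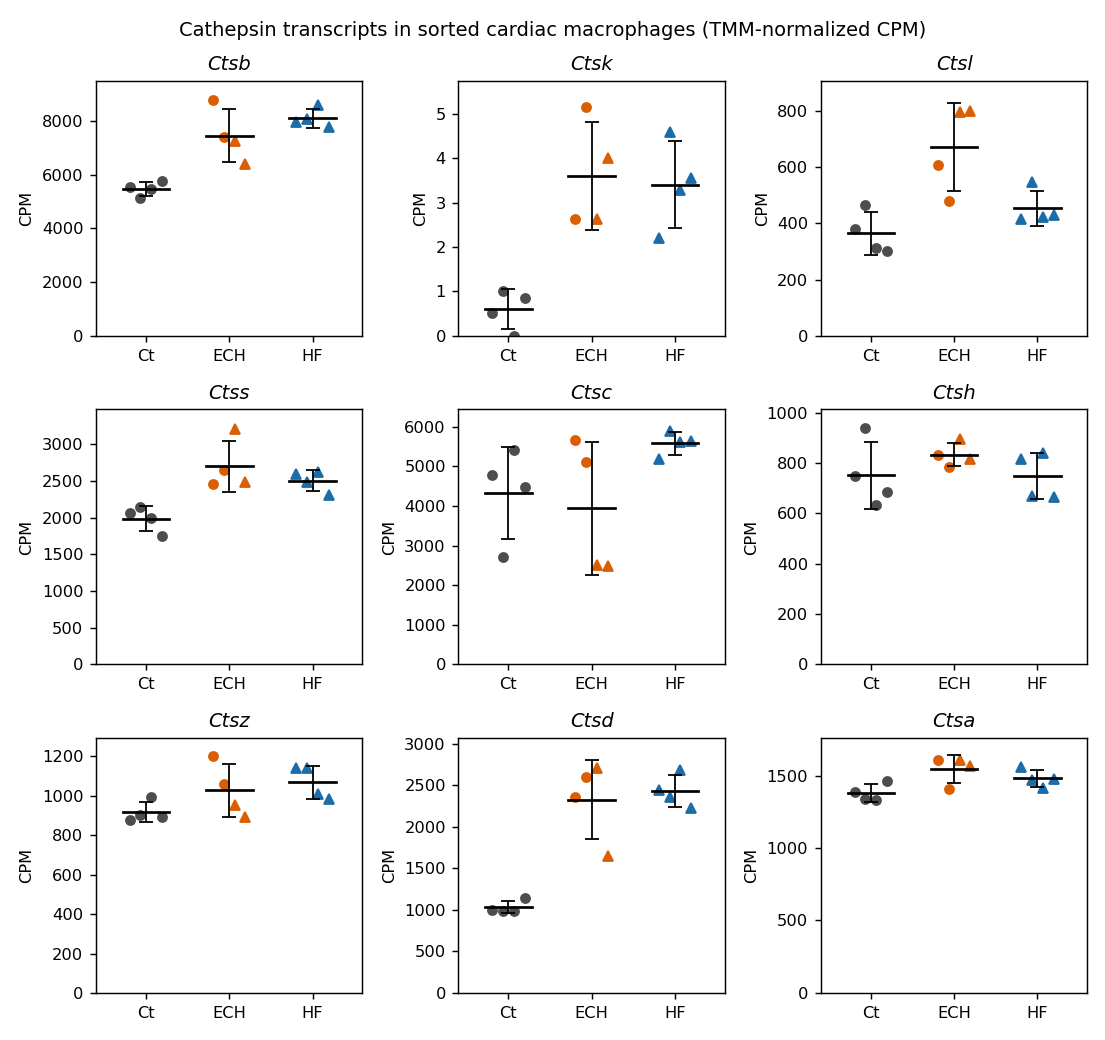
TMM-normalized CPM of each member in each library, with the group mean (line) and SD (bars), n = 4. Circles are the libraries of the set with Ct and triangles those of the set with HF; Ctsd separates Ct from both other groups, and for Ctsc both ECH triangles lie at about the level of the lowest Ct library.

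Cathepsin genes outside the 9 members were few in these cells. Of 15 others listed, 14 were in the tables and 5 had enough counts to be tested, and 0 of the 5 were called in any comparison. At an unadjusted edgeR p under 0.05 there were 0 of them between ECH and Ct, 2 between HF and Ct and 1 between HF and ECH, all lower, beside 8.72% and 5.17% of all genes that were lower by this measure in the latter comparisons. Ctsf, a papain-like lysosomal protease gene, was at 151, 186, 122 and 169 CPM in Ct, 136, 96.9, 141 and 157 CPM in ECH and 110.99, 119, 91.6 and 72.6 CPM in HF. All HF libraries were below all Ct libraries, the opposite order to Ctsd (log2 fold change −0.67, SE 0.19, edgeR FDR 0.140). Ctse, which encodes the other aspartic cathepsin, was far lower than Ctsd, with 3.79 to 12.9 CPM in Ct, 4.43 to 11.1 in ECH and 1.11 to 5.49 in HF, and its log2 fold change of −1.13 between HF and Ct had an edgeR FDR of 0.293. Ctso lay between 78.4 and 135 CPM over all libraries. Ctsw, a gene of T and NK cells, was at 4.07 to 6.08 CPM in Ct, 0.610 to 4.53 in ECH and 0 to 3.85 in HF, and the summed markers of those cells were 12.5 to 50.6, 2.11 to 24.1 and 6.42 to 17.4 CPM. Ctsg, a neutrophil serine protease gene, did not exceed 0.277 CPM in any library.

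Among inhibitors of cysteine cathepsins, both Ctla2 genes passed the FDR threshold against Ct in ECH and in HF, and none of the other inhibitors did. Ctla2a and Ctla2b encode mouse proteins that resemble the propeptide of cathepsin L, and lie next to each other on chromosome 13 (60934155 to 60936625 and 60895350 to 60897447, minus strand). Ctla2a was at 9.62, 22.8, 8.43 and 7.86 CPM in Ct, at 73.2, 69.8, 34.5 and 44.3 CPM in ECH and at 120, 92.0, 72.0 and 67.4 CPM in HF. It rose 4.55-fold in ECH (2.19, SE 0.36, edgeR FDR 0.0202) and 7.21-fold in HF (2.85, SE 0.37, edgeR FDR 0.00554), and every treated library was above every Ct library. The call in ECH was lost when only the ECH and Ct libraries were fitted, with ECH libraries 1 and 2 alone, and without Ct library 1 or Ct library 4, with an FDR of 0.0890, 0.213, 0.0831 and 0.0688 by edgeR. The log2 fold change was 2.02 to 2.68 over 22 other analyses, and the FDR was under 0.05 in 18 of them for ECH and in 21 of 21 for HF. Ctla2b was at 90.3, 86.1, 67.6 and 75.0 CPM in Ct, 153, 138, 122 and 111.2 CPM in ECH and 149, 170, 147 and 134 CPM in HF. Its FDR passed the threshold but its fold change stayed under 2, at 1.64 for ECH (0.72, edgeR FDR 0.0404) and 1.88 for HF (0.91, edgeR FDR 0.0159). The FDR of Ctla2b for ECH was under 0.05 in only 6 of 22 other analyses, against 19 of 21 for HF. Both genes are close in sequence and are spanned by shared gene models, so how the counting divided reads between them is uncertain.

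The Ctla2a call was the only one among 35 tested genes around the cathepsins (other cathepsins, inhibitors, processing and sorting genes, regulators, and partners or substrates), in ECH as in HF against Ct, where 0.356% and 0.377% of all genes were called. Between HF and ECH 0 of the 35 were called, with 5 at an unadjusted edgeR p under 0.05, beside 7.98% of all genes. Of 13 inhibitors listed, 11 were in the tables and 8 were tested. Cystatin C (Cst3), a secreted inhibitor, was abundant, at 2515, 3678, 2332 and 2520 CPM in Ct, 2413, 2261, 1739 and 1867 CPM in ECH and 3157, 2224, 2539 and 1963 CPM in HF (ECH against Ct −0.42, edgeR FDR 0.404). Cystatin B (Cstb), an inhibitor in the cytosol, was at 210, 253, 200 and 140 CPM in Ct, 299, 287, 225 and 227 CPM in ECH and 304, 311, 296 and 286 CPM in HF. All HF libraries were above all Ct libraries for Cstb, with a log2 fold change of 0.58 (SE 0.17, edgeR FDR 0.144). Cst7, Stfa1 and Stfa2l1 did not exceed 10.01 CPM, and each was highest in Ct library 2, which also held the most neutrophil marker counts. The stefin A genes are near-identical copies, and their values are uncertain.

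Genes that process cathepsins or carry them to the lysosome gave 0 calls among 9 tested. All 9 were above 0 in log2 fold change between ECH and Ct, where 51.1% of all genes were, and 3 of them had an unadjusted edgeR p under 0.05, beside 11.9% of all genes. Between HF and Ct 8 were above 0, beside 48.8% of all genes, and 1 had an unadjusted edgeR p under 0.05, beside 16.1% of all genes. M6pr, the cation-dependent mannose 6-phosphate receptor gene, was at 255, 240, 273 and 240 CPM in Ct, 352, 364, 341 and 281 CPM in ECH and 336, 337, 341 and 342 CPM in HF. Every ECH and HF library was above every Ct library for M6pr, at 0.41 in ECH (SE 0.11, edgeR FDR 0.142) and 0.43 in HF (SE 0.11, edgeR FDR 0.113). Lgmn, whose product legumain cleaves cathepsin precursors, overlapped between groups (1001 ± 89.0 CPM in Ct, 1131 ± 186 in ECH, 1176 ± 115 in HF). Psap of the same list overlapped too (2034 ± 522 CPM in Ct, 2697 ± 762 in ECH, 1779 ± 275 in HF). Sort1, a sorting receptor gene, was at 55.5 and 29.2 CPM in ECH libraries 3 and 4, against 5.40 to 16.3 CPM in all other libraries. Grn, the gene of progranulin, which binds cathepsin D, was at 2157 ± 206 CPM in Ct, 2823 ± 332 in ECH and 2545 ± 212 in HF (ECH against Ct 0.39, edgeR FDR 0.237).

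The genes of 4 transcription factors of the MiT/TFE family, which bind CACGTG motifs of lysosomal genes, gave 0 calls, with 1 unadjusted edgeR p under 0.05 (Mitf, lower in ECH than in Ct, beside 11.9% of all genes in either direction). Tfeb was at −0.07 in ECH and −0.33 in HF against Ct, Tfe3 at −0.02 and −0.07, Mitf at −0.55 and −0.28, and Tfec at 0.54 and 0.51, with an edgeR FDR of at least 0.372 throughout. These are transcript levels, and the activity of these factors depends largely on their location in the cell, which was not measured.

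Partners and substrates of the cathepsins gave 0 calls among 9 tested, with 3, 1 and 2 unadjusted edgeR p values under 0.05 for ECH against Ct, HF against Ct and HF against ECH. The shares of all genes were 11.9%, 16.1% and 7.98% in these comparisons. Cd74 encodes the invariant chain, which cathepsin S trims, and was at 15742, 16041, 14372 and 16156 CPM in Ct, 9507, 12678, 8961 and 8675 CPM in ECH and 14234, 10140, 14898 and 11957 CPM in HF. All ECH libraries were below all Ct libraries, at −0.65 (SE 0.16, edgeR FDR 0.101), and HF overlapped with both groups (−0.28 against Ct, edgeR FDR 0.404). B cells express Cd74 at high levels, and their markers were lower in ECH and HF than in Ct, as given above. The part of B cells in the Cd74 levels was not tested. Tlr7, an endosomal receptor that lysosomal proteases cleave into its active form, was at 212, 162, 166 and 223 CPM in Ct, 257, 192, 428 and 445 CPM in ECH and 177, 191, 160 and 143 CPM in HF. The ECH libraries split by the inferred set, as they did for Ctsc and Sort1, and HF was at −0.98 against ECH (SE 0.24, edgeR FDR 0.491). The serine protease genes that cathepsin C activates were near absent, with Elane at no more than 0.225 CPM and Gzmb at no more than 8.80 CPM. Neu1 and Glb1, whose products cathepsin A protects, were at 0.21 and 0.26 in ECH against Ct, with an edgeR FDR of at least 0.550.

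**Figure D4:**
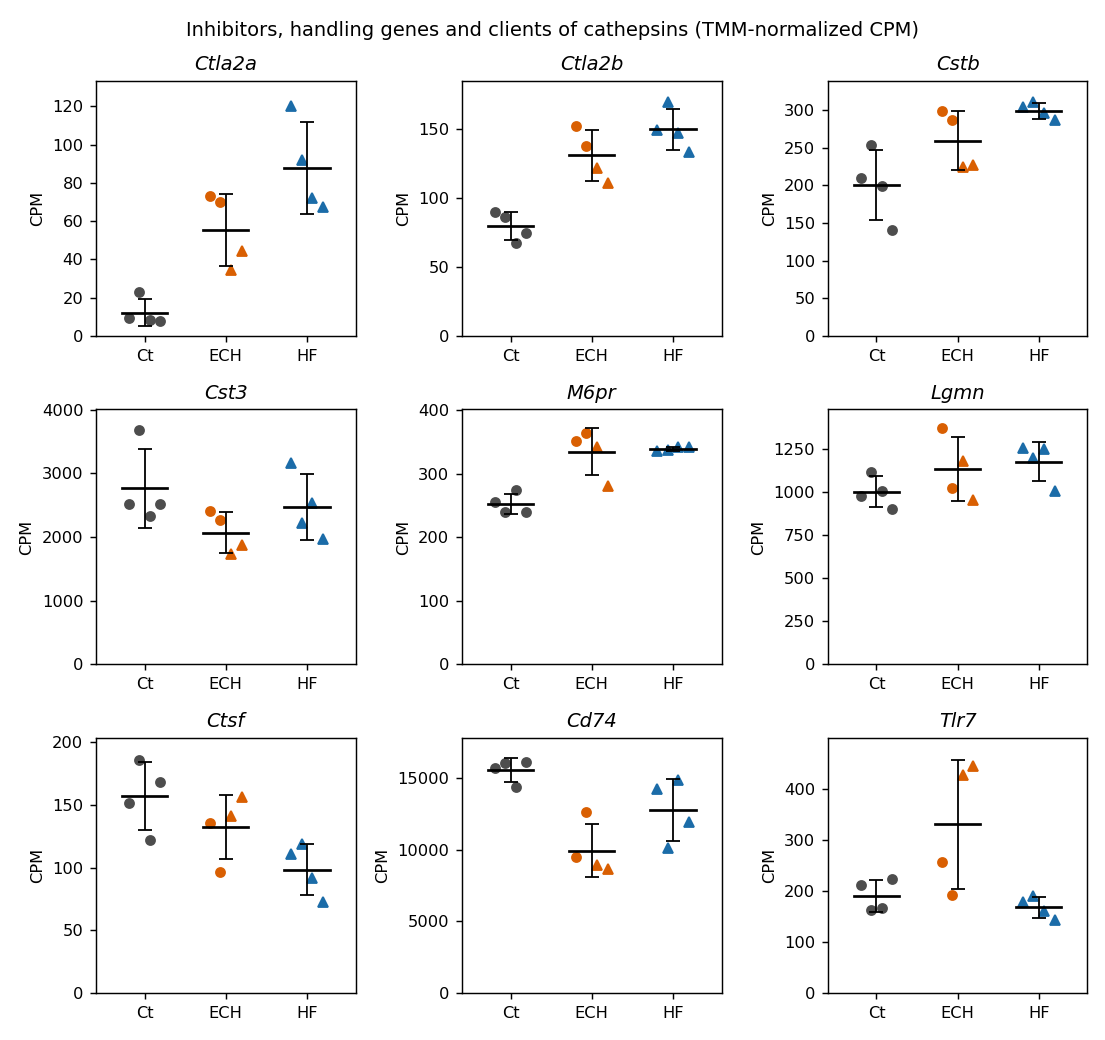
TMM-normalized CPM per library of inhibitors (Ctla2a, Ctla2b, Cstb, Cst3), handling genes (M6pr, Lgmn), a further cathepsin (Ctsf) and clients (Cd74, Tlr7), with group mean and SD, n = 4, and symbols as in the plot of the members. Ctla2a, Ctla2b and M6pr separate Ct from both treated groups, and the Tlr7 triangles of ECH stand above all other libraries.

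Genes whose pattern over the 12 libraries was most like that of the cathepsins were ranked by Pearson's r between log2 CPM of a gene and the mean log2 CPM of the 9 members. All points share library depth and the group differences, Ctsk with its wide range weighs most in the mean, and r is given as a measure of likeness only. Gpnmb, a lysosome-associated glycoprotein gene of phagocytes, was first (r = 0.944), at 7.45, 5.21, 1.30 and 30.5 CPM in Ct, 133, 293, 501 and 213 CPM in ECH and 156, 199, 248 and 226 CPM in HF. Syngr1 (r = 0.933), which encodes a vesicle membrane protein, followed, and then Ctla2b (r = 0.932). Mmp14 (r = 0.925), the gene of a membrane-bound matrix metalloproteinase, was at 8.43 to 14.6 CPM in Ct, 38.5 to 80.1 in ECH and 32.4 to 58.0 in HF. Spp1 (r = 0.923), the osteopontin gene, was at 18.7 to 67.5 CPM in Ct, 292 to 1121 in ECH and 349 to 1099 in HF. In each of these 5 genes the Ct libraries lay below all ECH and HF libraries. The ranking changed when Ctsk was left out of the mean, a choice made after seeing the data. Lamp1 (r = 0.961), the gene of a lysosomal membrane protein, was then first, at 1411 to 1536 CPM in Ct, 1825 to 2011 in ECH and 1853 to 2038 in HF. It was followed by Ffar4 (r = 0.958), a rare transcript listed at 0 in every Ct library and at no more than 1.77 CPM elsewhere, by Syngr1 (r = 0.950), Ctla2b (r = 0.948) and M6pr (r = 0.946), so that 2 of the 5 genes were shared by both rankings.

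**Figure D5:**
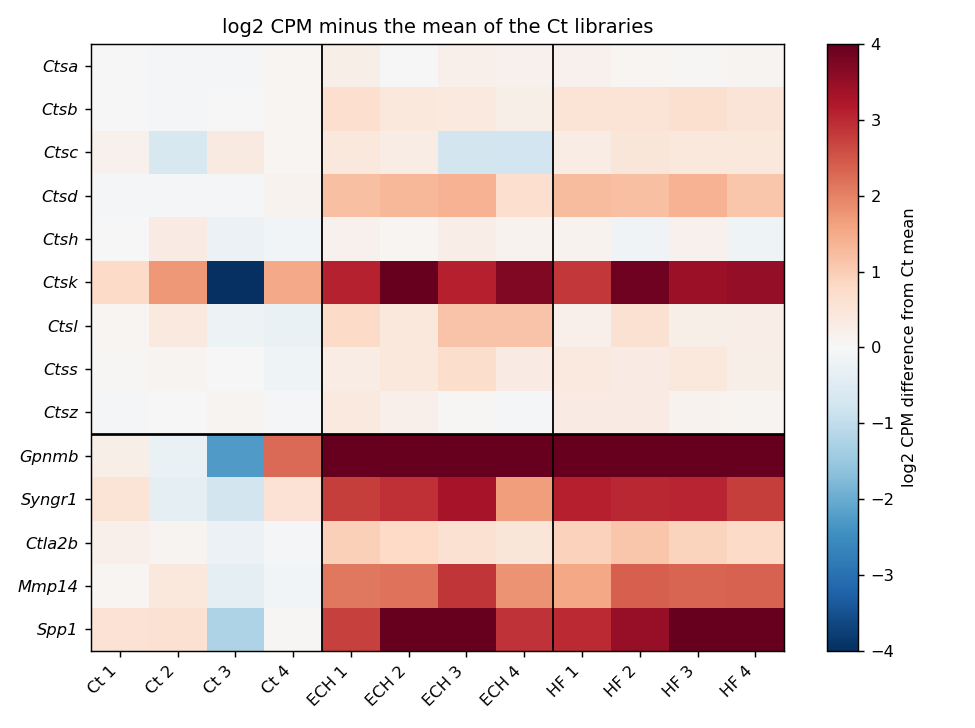
Log2 CPM of the 9 members (top) and of the 5 genes most like their mean (bottom) in each library, minus the mean of the Ct libraries, with colours capped at 4 in either direction. Ctsd is raised in all ECH and HF libraries, Ctsk is at the bottom of the scale in Ct library 3, and Ctsc is low in ECH libraries 3 and 4.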

How the data were processed

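RNA of CD14+/CD64+ cardiac Mφ sorted by FACS from 12 mice was sequenced as 12 libraries after cDNA synthesis with the SMART-Seq v4 kit. The authors checked reads with FastQC, trimmed them with Trimmomatic, aligned them to mm10 with TopHat2 and assigned them to genes with featureCounts. The deposited values are raw counts, without normalization. No source used here gives versions, gene annotation or strand setting. Samples were grouped by the condition in their labels. From the counts, 14608 of 24445 symbols passed filterByExpr, libraries were scaled by TMM, and 1 model of all 12 libraries was fitted with edgeR 4.0.16 (quasi-likelihood, R 4.3.3), giving 3 comparisons with Benjamini-Hochberg adjustment. The thresholds of the study, an FDR under 0.05 and a 2-fold change, were kept for calls. SE were taken from the F statistic. The biological coefficient of variation was 60.8%. Limits for a count of 0 (3 counts) and all depths cover counting error only.

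The members and the gene lists were chosen with earlier results of these data known. Genes are named as members or as tested genes of the lists. Genes near the members' pattern are the 5 with the highest r. TPM used union exon lengths of GENCODE M21, where 23466 symbols matched once, or the longest coding transcript, an alternative chosen after seeing the data. Other alternatives were RLE scaling, DESeq2 1.42.0, limma-voom 3.58.1 with quality weights, other filters and thresholds, only the groups compared, a replicate block, the inferred library set, and each library left out. The code was tested on simulated data. The 4 mice of a group are separate animals. Figures were drawn with matplotlib 3.10.9 in Python 3.11.15.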

Additional observations from a re-analysis of the deposited data

Results flagged for a closer look

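In each group of 4 libraries the gap between the highest or lowest library and its nearest neighbour was set against the range of the group (Dixon's criterion). Over 132 groups of the members and listed genes 12 libraries stood apart, where 6.6 are expected because chance gives about 1 in 20. Among the members it was 2 of 27 groups. Ctsd was at 1137 CPM in Ct library 4, against 989 to 1001 CPM in the other Ct libraries. Ctsl was at 548 CPM in HF library 2, against 416 to 429 CPM in the others of its group.

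Ct library 2 stood apart for 4 inhibitor genes, with 3678 CPM of Cst3 (others 2332 to 2520), 6.51 CPM of Cst7 (1.22 to 1.496), 22.8 CPM of Ctla2a (7.86 to 9.62) and 10.01 CPM of Stfa1 (0 to 0.859). In the HF group, library 1 was low for Ctso (98.2 CPM, others 122 to 126) and for Tfe3 (133.5 CPM, others 151 to 153), library 3 was high for Cst6 (0.568 CPM, others 0.0861 to 0.138) and library 4 for Stfa1 (0.858 CPM, others at most 0.0652). Gnptg was low in Ct library 1 (49.7 CPM, others 54.7 to 55.7), and Gzmb was high in ECH library 1 (8.80 CPM, others 0.718 to 2.04).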

How the results depend on the processing

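The number of members called between ECH and Ct was 1, and 5 at an unadjusted p under 0.05 alone, 0 with only these groups in the fit, 0 with libraries of the same inferred set, and 1 to 2 when each library was left out. Between HF and Ct it was 1, and 4 at an unadjusted p alone and 2 with the library set as a factor. Between HF and ECH it was 0, and 1 at an unadjusted p alone, 1 with the set as a factor and 1 within the same set. For the 35 genes around the cathepsins the count between ECH and Ct was 1, and 2 by FDR alone, 11 by unadjusted p alone, 0 with only these groups, 0 within the same set and 0 to 1 with each library left out. Between HF and Ct it was 1, and 2 by FDR alone, 7 by p alone and 3 with the set as a factor. Between HF and ECH it was 0, and 5 by p alone, 3 with the set as a factor and 4 within the same set. Beside these counts, 11.9%, 16.1% and 7.98% of all genes had an unadjusted p under 0.05 for ECH against Ct, HF against Ct and HF against ECH, and 0.472% and 0.513% passed by FDR alone against Ct. With the set as a factor 0.151%, 1.42% and 1.86% of all genes were called, within the same set 0.00674% between ECH and Ct and 2.49% between HF and ECH, and with only ECH and Ct 0.0567%. Between ECH and Ct the share was 0.0734% to 0.633% when each library was left out. Fits of fewer libraries called fewer genes in some comparisons and more in others. The cause of these changes was not tested.

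Directions turned for small differences. Ctsc between ECH and Ct was 0.31 with the set as a factor and 0.30 within the same set, and −0.36 to 0.032 with each library left out. Ctsh between HF and Ct was 0.041 by limma-voom, 0.065 without Ct library 2 and HF library 1, and −0.080 to 0.12 with each library left out. Ctsl between HF and Ct was −0.24 with the set as a factor. Ctsk between HF and ECH was 0.079 by limma-voom, 0.040 with the set as a factor, 0.041 within the same set, 0.083 without Ct library 2 and HF library 1, and −0.26 to 0.14 with each library left out. With each library left out, Ctsd between HF and ECH was −0.073 to 0.14, and Ctsz −0.0044 to 0.14.

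Libraries of the same replicate number in different groups did not deviate together (12 pairs, r between −0.07 and 0.07). This number is the order within a group and not the number in the label. Pairs by label number were not looked at, and so few libraries cannot show whether the mice are paired. With the replicate number as a block the counts of called members were 1, 1 and 0, and those of the genes around them 1, 1 and 0. In these comparisons 0.151%, 0.123% and 0% of all genes were called.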

Other observations

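Each member had its own nearest gene over the 12 libraries, by Pearson's r of log2 CPM and with the same shared group differences. For Ctsd it was Syngr1 (r = 0.977), at 1.20 to 3.04 CPM in Ct, 6.56 to 20.2 in ECH libraries and 13.9 to 17.5 in those of HF. For Ctsb it was Pkm (r = 0.947), a pyruvate kinase gene of glycolysis, at 412 to 599 CPM in Ct, 636 to 1172 CPM in ECH and 994 to 1050 CPM in HF. For Ctsc it was Rab3il1 (r = 0.957), which was lower in some ECH libraries, at 341 to 486 CPM in Ct, 303 to 515 CPM in ECH and 501 to 539 CPM in HF. The others were Gde1 for Ctsl (r = 0.956), Sgk1 for Ctss (0.917), Msr1, a scavenger receptor gene of Mφ, for Ctsz (0.912), Mlkl for Ctsh (0.909), Zbtb45 for Ctsa (0.906) and Acat2 for Ctsk (0.894). These are values of likeness among many genes and were not tested.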
